A study of Mus musculus with 16 samples.

Results

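Haematopoietic stem cells (HSC) from the bone marrow of Jak2V617F mice were compared with HSC from wild-type control mice, with 4 libraries of each genotype. The 8 libraries were chosen by their titles and are 8 of 16 in the series. The other 8 are Fcgr-negative MPP3, multipotent progenitors with a myeloid bias, from the same genotypes, and they enter here through the shared estimate of spread and for 1 test of difference. Per the labels the animals differ by genotype (WT or Jak2V617F), and no treatment, age or promoter that drives the mutant allele is named. The replicate number is also the batch, so each batch holds 1 library of every group. The labels do not say whether the libraries came from separate animals, so each p below measures the spread between these libraries. RNA came from 7000 to 10000 cells per library and the labels name no sort gates, so every value is an average over many cells, in which fewer cells of a type and less RNA per cell cannot be told apart.

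JAK2 is a tyrosine kinase bound to the inner side of cytokine receptors, among them those for erythropoietin and G-CSF. When a cytokine binds, JAK2 phosphorylates STAT proteins, which enter the nucleus and switch on target genes, among them Cish and the Socs genes, whose products damp the same receptors. The V617F change releases the kinase from its own inhibitory domain and is the most common lesion of the myeloproliferative neoplasms, in which mutant stem cells make too many red cells, platelets or granulocytes. Most HSC of an adult mouse are out of the cell cycle.

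The 8 libraries held 35.08 to 40.87 (in 1e6) estimated counts each and detected 15019 to 16522 genes. Levels are counts per 1e6 (CPM) after TMM scaling, given in the order of replicates 1 to 4 (C1 to C4 for control and M1 to M4 for mutant HSC), and group values are means ± SD with n = 4 libraries. Changes are log2 fold changes (mutant minus control) ± SE from edgeR's quasi-likelihood test. The SE was derived as the size of the change over the square root of the test's F value. A gene was called changed at a Benjamini-Hochberg adjusted p under 0.05 over 14179 tested genes. Set against the control MPP3 libraries, the control HSC libraries carried the stem cell markers Slamf1 (39.8 ± 13.9 against 1.88 CPM in MPP3), Mecom (138 ± 25.8 against 41.5) and Procr (92.2 ± 21.2 against 32.2). Genes of later progenitors were low in them, with Mpo at 9.33 ± 6.29 CPM against 2492 and Cd48 at 2.50 ± 0.769 against 185. Slamf1 was 37.6 ± 3.10 CPM in the mutant HSC (edgeR adjusted p = 0.928). Of the other markers just named, Procr was called lower and Cd48 higher in the mutant HSC. Mecom was lower without overlap and Mpo overlapped, and edgeR called neither, as described below. Transcripts of genes on the Y chromosome summed to at least 71.3 CPM in every library of batches 2 and 3 and to at most 0.769 CPM in every library of batches 1 and 4. The split lies between batches and is the same in both genotypes. M1 and M4 resembled each other most among all pairs within groups (r of log2 CPM = 0.971, against 0.933 to 0.958 for the other pairs). The chi-square per degree of freedom of their counts was 47.9, the lowest of these pairs (54.7 to 157 for the others). Results are therefore also given without these 2 libraries. That fit sets M2 and M3 alone, both from batches with Y-linked transcripts, against all 4 controls. It thus has fewer mutant libraries and no balance over batches, and the part of either in a lost call was not tested.

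The kinase gene itself, Jak2 (chr19:29251828-29313080 in GRCm38), was measured at 15.0, 20.7, 22.0 and 29.3 CPM in the control libraries and at 27.4, 30.0, 18.2 and 27.8 CPM in the mutant ones. These ranges overlap, and the difference was 0.25 ± 0.23 (edgeR adjusted p = 0.604). A count per gene cannot reveal a single changed base, so the level does not check the genotype labels. Of the 18 tested genes within 1 Mb of Jak2, 0 were called by edgeR, and within 10 Mb 8 of 94 were (8.51%), near the share over all genes.

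In all, 1035 of 14179 genes were called (7.3%), of which 646 were higher (4.56%) and 389 lower (2.74%) in the mutant HSC, and 3080 (21.7%) had an unadjusted p under 0.05. Replication fork and mitosis genes had the largest shares of risers among the gene lists described below, while several genes known from quiescent stem cells stood among those that fell. The rises were mostly moderate and sat in well expressed genes: their median fold was 1.56, 90 of 646 exceeded 2-fold, and their median level was 102 CPM. The falls were fewer but larger, with a median fold of 1.75, 131 of 389 over 2-fold, and a median level of 42.6 CPM. Among the 2151 genes at 100 CPM or more, 15.3% rose and 4.6% fell, whereas among the 2934 genes from 5 to 20 CPM the shares were 1.43% and 2.79%. The 4 mutant and 4 control libraries did not overlap for 553 of the risers and 347 of the fallers. All 4 batches gave the same direction for 631 risers and 378 fallers. These counts cover genes called from the same libraries, so they are not a separate check. Over all tested genes, groups failed to overlap with the mutant higher in 7.26% and with the mutant lower in 7.6%. The first principal component of the 8 libraries, with 24.5% of the variance, ran from -52.5 to -33.3 in the controls and from 26.2 to 65.4 in the mutants.

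The total of 1035 depended on single libraries. Leaving out M1 gave 605, M4 gave 622 and C2 gave 634, whereas leaving out M3 gave 1412. Without M1 and M4 together, 266 genes were called (180 higher, 1.2% of those tested, and 86 lower, 0.573%), and 242 of these were among the 1035. DESeq2 called 1674 genes (1002 higher, 7.07%, and 672 lower, 4.74%) and shared 1027 with edgeR, limma-voom called 1271 (4.65% higher, 4.31% lower), and edgeR with the batch as a block called 1394 (5.77% higher, 4.06% lower).

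**Figure D1:**
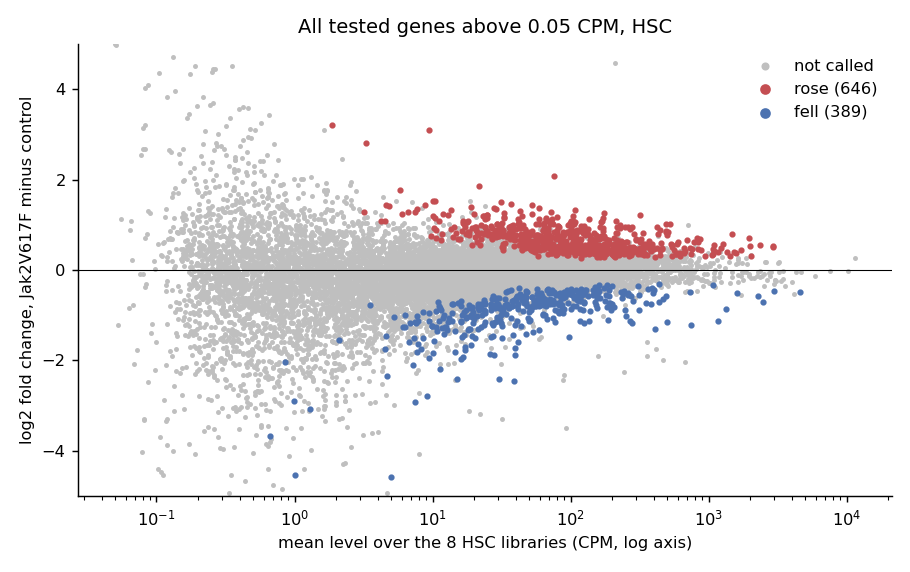
Change in Jak2V617F HSC (vertical axis, log2 fold change, mutant minus control) against mean level (horizontal axis, CPM, log scale), with 1 point per tested gene above 0.05 CPM, and with called genes coloured by direction. Risers gather at higher levels (median 102 CPM) than fallers (median 42.6 CPM), and 89 genes beyond 5 in either direction are not shown.

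The largest rises and falls were named only among genes without overlap between groups, so their lack of overlap is no added evidence. Of the called genes averaging 5 CPM or more with no overlap, predicted models and pseudogenes left out, Alox5 rose most. It encodes the 5-lipoxygenase that begins leukotriene synthesis (chr6:116410077-116461178). It was at 1.78, 0.97, 1.30 and 3.87 CPM in the control libraries and at 15.2, 16.9, 25.04 and 10.7 CPM in the mutant ones. Every mutant library lay above every control one, a rise of 3.09 ± 0.40 (edgeR adjusted p = 0.000333). Plac8, a small cysteine-rich protein of myeloid progenitors (chr5:100553725-100572245), went from 24.5, 18.2, 28.1 and 46.1 CPM to 95.0, 147, 148 and 102 CPM. Again the groups were apart, with the nearest pair a control at 46.1 and a mutant at 95.0 CPM, and the rise was 2.07 ± 0.22 (edgeR adjusted p = 0.000163). Cd48, a surface protein whose absence is commonly used to sort HSC, was at 3.13, 1.94, 1.74 and 3.20 CPM in controls and at 8.67, 4.91, 5.78 and 7.60 CPM in mutants. It rose by 1.43 ± 0.21 without overlap (edgeR adjusted p = 0.000763), yet its mean of 6.74 ± 1.71 CPM in mutant HSC was far below the 185 CPM of control MPP3. The cytotoxic granule membrane gene Nkg7 rose alongside it, from 48.6, 50.7, 84.1 and 59.0 CPM to 132, 163, 167 and 151 CPM (1.34 ± 0.16, edgeR adjusted p = 0.000163, no overlap).

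Matn4, a matrix protein of quiescent HSC (chr2:164389393-164405160), fell from 13.01, 16.4, 17.4 and 17.5 CPM to 1.75, 2.02, 2.29 and 3.19 CPM. The change was -2.79 ± 0.35 with no overlap (edgeR adjusted p = 0.0012), and in both MPP3 groups Matn4 had no counts. Fcer1g, the signalling chain shared by activating Fc receptors, was at 24.6, 31.7, 24.9 and 25.7 CPM in controls and at 10.3, 10.5, 10.9 and 11.4 CPM in mutants. The mutant libraries lay close together and none reached a control (-1.31 ± 0.15, edgeR adjusted p = 0.000163). Trib2, a pseudokinase that scaffolds protein degradation, went from 36.8, 25.6, 14.1 and 24.1 CPM to 5.66, 4.07, 4.16 and 5.04 CPM (-2.41 ± 0.44, edgeR adjusted p = 0.00351).

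Pygm, the glycogen phosphorylase of muscle, stood at 105, 62.6, 43.1 and 52.5 CPM in controls and at 10.5, 5.70, 19.4 and 12.7 CPM in mutants, a change of -2.45 ± 0.40 (edgeR adjusted p = 0.00161). The lowest control was above the highest mutant by more than 2-fold. Other large falls that kept their call with any 1 HSC library left out were those of Dok3, an adaptor that restrains immune receptor signalling (-2.10 ± 0.33), Smox, spermine oxidase (-1.87 ± 0.26), Tinagl1, a matricellular protein (-1.87 ± 0.27), and Aplp2, a relative of the amyloid precursor (-1.14 ± 0.13). Runx1t1, the partner gene of the RUNX1 fusion of acute myeloid leukaemia, was at 18.7 ± 3.75 CPM in controls and 4.08 ± 1.86 CPM in mutants and fell by 2.19 (SE 0.42, edgeR adjusted p = 0.00481). That call was lost without M1 and M4 (edgeR adjusted p = 0.105).

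**Figure D2:**
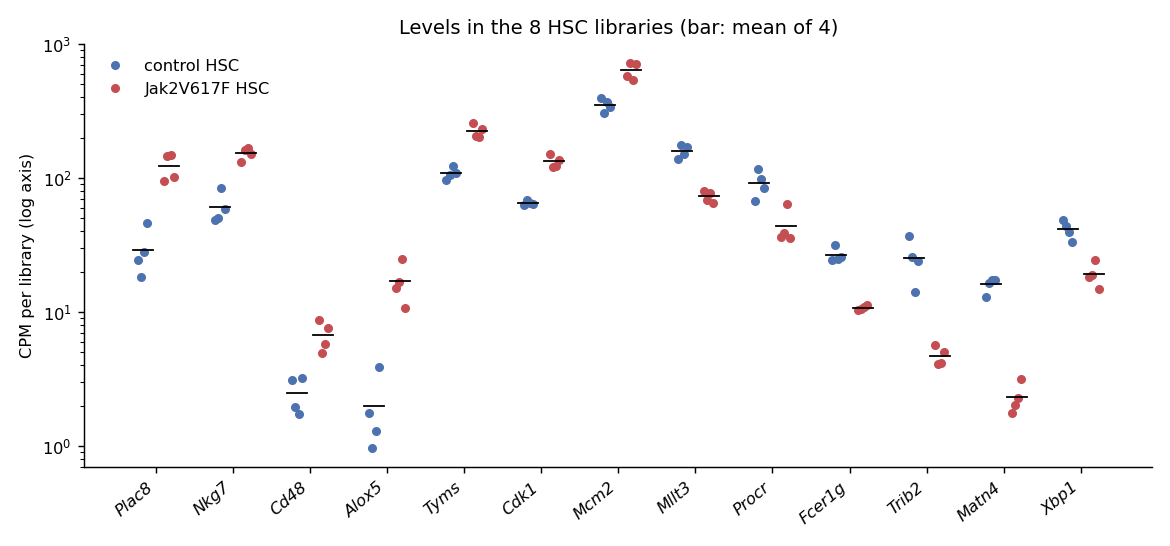
Level of 13 genes in each of the 8 HSC libraries (vertical axis, CPM on a log scale; 1 point per library, control and mutant side by side). Plac8, Nkg7, Cd48, Alox5, Tyms, Cdk1 and Mcm2 are higher in all 4 mutant libraries, and Mllt3, Procr, Fcer1g, Trib2, Matn4 and Xbp1 are lower.

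Gene lists by function are described below by how many tested members rose or fell, beside the 4.56% and 2.74% over all genes, and by the median log2 change of their tested members, beside -0.06 over all genes. Many of these counts are also given with HSC libraries left out. The shares over all genes are not matched for level: among genes at 100 CPM or more, 15.3% rose and 4.6% fell.

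Genes of DNA replication rose together. Of the origin licensing and helicase genes, which load the MCM ring on DNA before S phase, 16 of 27 rose and 0 fell (median 0.61; 13 to 21 with 1 library left out; 9 without M1 and M4). Of the genes of the replication fork, polymerases, clamp, primase and ligase, 29 of 33 rose and 0 fell (median 0.76; 21 to 28; 15). Among enzymes that make deoxynucleotides and pyrimidines, 11 of 15 rose and 0 fell (median 0.63; 8 to 12; 5). Mcm2, a subunit of the replicative helicase, was at 394, 304, 372 and 339 CPM in controls and at 576, 719.7, 539 and 705 CPM in mutants. All mutant libraries were above all controls, a rise of 0.85 ± 0.11 (edgeR adjusted p = 0.000424). The DNA ligase of lagging strand synthesis, Lig1, rose by 0.96 ± 0.11 (176 ± 18.2 to 343 ± 33.6 CPM, edgeR adjusted p = 0.000163). Tyms, thymidylate synthase (chr5:30058202-30073617), went from 96.4, 105, 122 and 109 CPM to 259, 205, 203 and 234 CPM. Its rise of 1.06 ± 0.10 was among those with the smallest p-values (edgeR adjusted p = 0.000156), and no control library reached a mutant one. Rrm2, the ribonucleotide reductase subunit made in S phase, rose by 1.25 ± 0.18, and Pclaf, the PCNA partner, by 1.18 ± 0.13. Purine synthesis genes moved less, with 3 of 13 up (median 0.35). That count was 1 without C2 or C4 or M1 or M4, 7 without M3 and 0 without M1 and M4 (edgeR; 8 of 13 were higher at an unadjusted p under 0.05 with all libraries, 6 by DESeq2 and 3 by limma-voom).

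Among mitosis genes 43 of 49 rose and 0 fell (median 0.86; 33 to 45 with 1 library left out; 16 without M1 and M4), and all 49 had a positive change. Cdk1, the kinase that drives entry into mitosis (chr10:69335146-69352938), was at 63.1, 68.7, 65.3 and 64.0 CPM in controls and at 152, 122, 124 and 136 CPM in mutants. The controls lay close together and every mutant library was far above them (1.03 ± 0.12, edgeR adjusted p = 0.000191). Its partner Ccnb1, cyclin B1, rose from 109, 76.1, 128 and 114 CPM to 254, 201, 255 and 236 CPM (1.15 ± 0.14, edgeR adjusted p = 0.000191), with no overlap. Cdca8, the borealin subunit of the chromosomal passenger complex, rose by 0.94 ± 0.11, and Ncapd2, a condensin subunit, by 0.93 ± 0.11. Mki67, the proliferation antigen, chosen after its values were seen, was at 85.7, 97.0, 91.3 and 94.2 CPM against 188, 166, 153 and 135 CPM. It rose by 0.80 ± 0.19 (edgeR adjusted p = 0.0143), a call lost without M1 (edgeR adjusted p = 0.0535) and without M1 and M4 (0.0989).

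Promoters of the mitosis genes are shown because these members moved together and because many cell cycle genes are known to be held silent in resting cells through a CHR element and driven through CCAAT boxes bound by NF-Y. The 250 bases before each start site in RefSeq were taken for 10389 of the 14179 tested genes (73.3%), in 13280 windows. A gene was counted for a motif if any of its windows held it. Searched on both strands were the letters of the NF-Y box, CCAAT, of the CHR element, TTTGAA, and of an E2F site, TTCCCGCC. The letters of a STAT site, TTCNNNGAA, and of the E-box, CACGTG, were searched in the same way. Matches may share bases, as where a STAT site ends in the letters of a CHR element. The lines below give 4 promoters of called genes in GRCm38.p6, all on the minus strand and read 5′ to 3′ toward the gene, with each CCAAT or TTTGAA match, or its reverse complement, in capitals.
Cdk1, chr10:69352913-69353162: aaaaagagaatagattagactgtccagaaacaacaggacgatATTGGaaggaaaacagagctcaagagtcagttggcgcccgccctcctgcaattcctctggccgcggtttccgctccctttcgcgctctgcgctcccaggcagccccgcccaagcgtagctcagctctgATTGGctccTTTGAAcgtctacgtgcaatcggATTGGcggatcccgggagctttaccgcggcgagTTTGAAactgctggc
Ccnb1, chr13:100786487-100786736: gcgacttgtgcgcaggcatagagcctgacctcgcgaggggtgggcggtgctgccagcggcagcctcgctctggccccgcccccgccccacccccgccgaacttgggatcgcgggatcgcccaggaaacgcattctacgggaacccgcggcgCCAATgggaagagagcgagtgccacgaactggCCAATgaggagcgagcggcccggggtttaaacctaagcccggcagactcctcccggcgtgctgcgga
Cdca8, chr4:124936918-124937167: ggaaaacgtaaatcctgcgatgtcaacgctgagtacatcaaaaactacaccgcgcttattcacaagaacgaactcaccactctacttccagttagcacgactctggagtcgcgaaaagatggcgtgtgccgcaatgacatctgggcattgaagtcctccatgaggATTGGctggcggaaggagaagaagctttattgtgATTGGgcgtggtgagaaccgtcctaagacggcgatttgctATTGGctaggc
Mcm2, chr6:88898781-88899030: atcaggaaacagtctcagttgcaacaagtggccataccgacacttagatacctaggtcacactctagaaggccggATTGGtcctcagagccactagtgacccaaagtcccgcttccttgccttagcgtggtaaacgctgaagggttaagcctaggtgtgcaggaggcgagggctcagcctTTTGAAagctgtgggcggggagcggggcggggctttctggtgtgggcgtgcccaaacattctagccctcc
The Cdk1 window holds 3 CCAAT boxes and 2 CHR elements, that of Ccnb1 2 CCAAT boxes, that of Cdca8 3 CCAAT boxes and that of Mcm2 1 of each. A CCAAT box was found in 26 of 35 called mitosis genes with a promoter (74.3%), in 259 of 511 risers (50.7%), in 37% of fallers and in 40.5% of all tested genes. It was not particular to mitosis genes, being in 9 of 11 called origin licensing and helicase genes (81.8%). It was in 12 of 24 called fork genes (50%), 8 of 17 called proteasome genes (47.1%) and 2 of 4 called clock genes (50%). The CHR element was in 2, 3, 1 and 0 of these, in the same order. A CHR element was found in 13 of the 35 (37.1%) against 13% of all, and both motifs in 12 of the 35 (34.3%) against 5.95%. The STAT site was present in 6.46% of risers, 7.21% of fallers and 7.21% of all tested genes. The E2F site was present in 6.07% of risers, 1.31% of fallers and 3.98% of all, and in 0 of the 35 mitosis genes. The E-box was present in 14.3% of risers, 8.52% of fallers and 9.77% of all. These matches describe letters in a fixed window and not bound sites.

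Upstream of S phase, 8 of 25 G1 cyclins, cyclin-dependent kinases and E2F factors rose and 0 fell (median 0.32; 7 to 9 with 1 library left out; 4 without M1 and M4). Ccne2, cyclin E2, was at 13.7, 14.3, 14.7 and 14.01 CPM in controls and at 40.8, 28.5, 28.7 and 32.9 CPM in mutants. The controls were nearly identical and every mutant library was far above them (1.21 ± 0.19, edgeR adjusted p = 0.00138). Cdk6, the G1 kinase that sets how readily HSC leave quiescence, went from 265, 334, 368 and 426 CPM to 844, 689, 478 and 806 CPM. No mutant library fell within the control range (1.02 ± 0.19, edgeR adjusted p = 0.00406), but the call was lost without M1 and M4 (edgeR adjusted p = 0.102). Of 19 cell cycle brakes, 6 fell and 0 rose (median -0.58). The count was 2 without M4, 3 without C1 or C2 or M1 or M2, and 1 without M1 and M4. The brake that kept its call in all these fits was Foxo3, a transcription factor of stem cell quiescence, at 135, 147, 154 and 155 CPM against 95.3, 83.7, 89.2 and 97.7 CPM (-0.69 ± 0.14, edgeR adjusted p = 0.00591). Btg1, an antiproliferative gene, went from 125, 76.1, 58.0 and 79.6 CPM to 56.0, 39.6, 34.3 and 39.6 CPM, without overlap (-1.0 ± 0.25, edgeR adjusted p = 0.0202), and lost its call without C1 or M2, M3 or M4 (highest adjusted p = 0.0787). Txnip, an inhibitor of thioredoxin and of glucose uptake, fell by 1.21 (SE 0.27) from 1046 ± 264 to 452 ± 175 CPM, with overlap at M3. Its call was lost without M1 and M4 (edgeR adjusted p = 0.2). Cdkn1c, the cyclin-dependent kinase inhibitor p57 of quiescent HSC, chosen after its values were seen, was at 6.95 ± 1.88 CPM against 3.09 ± 1.02 CPM and was not called (edgeR adjusted p = 0.161), although limma-voom called it (adjusted p = 0.0415). Among genes of homologous recombination, the Fanconi pathway and checkpoints, 12 of 26 rose and 0 fell (median 0.80; 7 without M1; 4 without M1 and M4). Brca1, which guides that repair, rose by 1.14 ± 0.16, from 15.5 ± 2.51 to 34.3 ± 7.25 CPM.

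**Figure D3:**
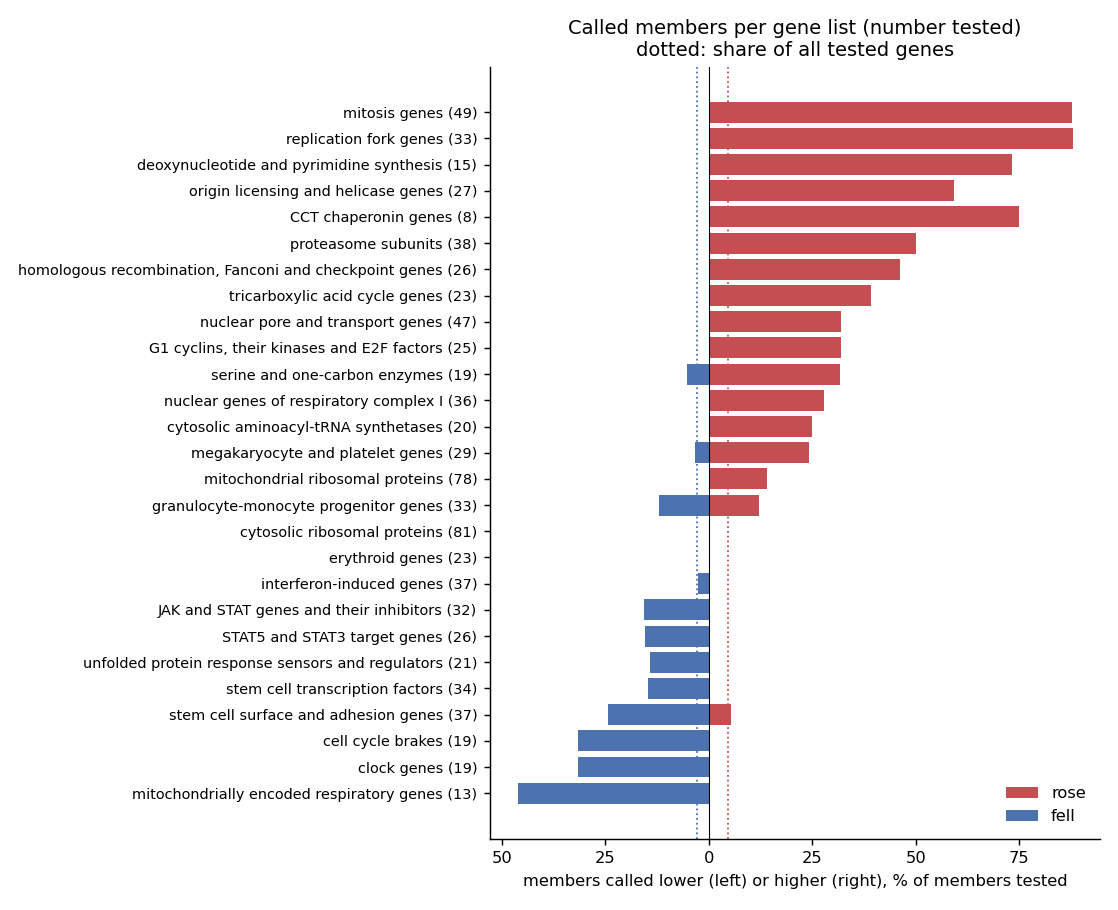
Share of tested members of 27 gene lists that rose (right) or fell (left) in Jak2V617F HSC (horizontal axis, percent of tested members), with dotted lines at the shares over all tested genes, 4.56% and 2.74%. Mitosis and replication fork genes have the longest bars to the right, and cell cycle brakes, clock genes and mitochondrially encoded genes extend only to the left.

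Transcription factors of stem cells leaned the other way. Of 34 such genes 5 fell and 0 rose (median -0.45; 4 to 7 fell with 1 library left out; 3 without M1 and M4), and 8 fell with the batch as a block. Mllt3, a reader of histone acylation needed for HSC maintenance (chr4:87769925-88033364), was at 139, 176, 152 and 169.6 CPM in controls and at 80.3, 68.9, 77.8 and 65.7 CPM in mutants. Every mutant library was far below the lowest control (-1.12 ± 0.13, edgeR adjusted p = 0.000163). Hlf, a PAR-domain factor that marks the earliest stem cells, went from 267, 271, 229 and 292 CPM to 152, 141, 152 and 155 CPM, with the mutants tightly grouped and none near a control (-0.82 ± 0.11, edgeR adjusted p = 0.000494). Hoxa9, a homeobox factor of stem and leukaemic cells, fell by 0.73 (SE 0.14), from 58.4, 59.2, 59.6 and 58.7 CPM to 39.5, 28.3, 33.3 and 41.4 CPM (edgeR adjusted p = 0.00479). Lyl1, a partner of the SCL complex, fell by 0.72 (SE 0.16) and lost its call without M1 and M4 (edgeR adjusted p = 0.195). Mecom, chosen after its values were seen, was at 164, 142, 102 and 144 CPM against 91.3, 92.3, 89.6 and 96.3 CPM. Its groups did not overlap, but edgeR did not call it (adjusted p = 0.101), whereas DESeq2 (adjusted p = 0.0448) and limma-voom (0.0499) did.

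Among stem cell surface and adhesion genes, 9 of 37 fell and 2 rose (median -0.27). The 9 became 4 without M2, 4 without M4, 5 without C2 or M1, and 4 without M1 and M4. The 2 rises became 1 without any HSC library other than M3 and M4, and without M1 and M4. Besides Matn4, Cd82, a tetraspanin that holds HSC in quiescence, fell from 77.6, 111, 107 and 127 CPM to 46.2, 45.0, 36.2 and 63.6 CPM. No mutant library reached a control one (-1.15 ± 0.22, edgeR adjusted p = 0.0046). Procr, the protein C receptor EPCR and a sort marker of HSC, was at 67.96, 118, 98.8 and 84.3 CPM in controls and at 36.1, 38.9, 63.6 and 35.5 CPM in mutants. M3 stood apart from its group and close to the lowest control, and the fall of 1.08 (SE 0.22, edgeR adjusted p = 0.00742) was not called without M1 and M4 (adjusted p = 0.154). Kit, the stem cell factor receptor, was lower without overlap at 1255 ± 95.8 against 973 ± 125 CPM and was not called (edgeR adjusted p = 0.0835), although it passed with the batch as a block (adjusted p = 0.0183) and in DESeq2 (0.035). Imprinted growth-control genes, known for their expression in quiescent HSC, had 3 of 12 fall and 0 rise (median -0.57), a count that was 0 without C3, M1 or M4, 1 without C2 or C4 or M2, and 0 without M1 and M4 together. Ndn, necdin, an imprinted gene that is also counted among the brakes, was at 54.3, 57.5, 53.9 and 58.6 CPM against 23.4, 13.8, 24.5 and 21.3 CPM. The groups were far apart (-1.43 ± 0.38, edgeR adjusted p = 0.028), yet the call was lost without any HSC library other than M3 (highest adjusted p = 0.09).

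Of 33 genes of granulocyte-monocyte progenitors, 4 rose (Plac8, Nkg7, Cd48 and Cd53, each still called with any 1 HSC library left out and without M1 and M4) and 4 fell (median -0.42). Those that fell were Spi1, Prtn3, Csf2ra and Igsf6, of which 1 or 2 were called without any HSC library other than M3, and 1 without M1 and M4. Cd53, a leukocyte tetraspanin, was at 13.1, 20.6, 34.1 and 31.2 CPM in controls and at 63.4, 78.7, 45.8 and 57.6 CPM in mutants. All mutants were higher, most clearly in batches 1 and 2 (1.31 ± 0.26, edgeR adjusted p = 0.00514). Mpo, the granule enzyme of the myeloid lineage, chosen after its values were seen, was at 13.5, 11.3, 0 and 12.6 CPM against 2.04, 0.196, 16.8 and 2.41 CPM, with full overlap (edgeR adjusted p = 0.743). Of the 16 tested neutrophil genes 1 fell: Padi4, the enzyme that citrullinates histones, from 204, 161, 163 and 168 CPM to 73.6, 93.4, 55.0 and 85.6 CPM (-1.18 ± 0.18, edgeR adjusted p = 0.00104), with no overlap. The summed level of the whole neutrophil list was 518 to 643 CPM in controls and 314 to 489.6 CPM in mutants, led by Lyz2 and Padi4, while Fpr1 and Stfa1 had no counts.

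Megakaryocyte and platelet genes had 7 of 29 rise and 1 fall (median 0.37), but their medians within batches 1 to 4 were -0.05, 0.86, 0.68 and 0.01. The 7 became 3 without C2 or M2, 4 without C4 or M1, and 3 without M1 and M4. Tuba8, an alpha-tubulin of megakaryocytes, rose from 57.2, 63.9, 70.4 and 60.4 CPM to 129.9, 159, 137 and 154 CPM. The groups were far apart (1.20 ± 0.17, edgeR adjusted p = 0.000574). Cd9, a tetraspanin of platelets, rose by 0.45 ± 0.10 (177 ± 13.3 to 242 ± 24.3 CPM, edgeR adjusted p = 0.0117), also without overlap. Serpine2, a protease inhibitor, went from 9.33 ± 3.71 to 34.0 ± 16.4 CPM with overlap at M3 (12.7 CPM), and its call was lost without M1 and M4 (edgeR adjusted p = 0.0854).

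Of 23 erythroid genes, 0 were called by edgeR (median -0.56), 2 were higher and 5 lower at an unadjusted p under 0.05, DESeq2 called 1 higher and 3 lower, and limma-voom called 1 higher. Without M3, edgeR called 1 higher, as it did on the HSC libraries alone, and with the batch as a block it called 1 lower. Gata1, the erythroid and megakaryocyte factor, chosen after its values were seen, was at 47.8, 31.0, 55.1 and 63.1 CPM against 76.4, 97.9, 104 and 93.8 CPM, without overlap. It was not called (0.92 ± 0.30, edgeR adjusted p = 0.0717), though DESeq2 (adjusted p = 0.0145) and limma-voom (0.0157) called it. Lymphoid priming genes had 2 of 19 fall (median 0), and 0 did without M4, 1 without C2, C3 or C4 or M1 or M2, and 0 without M1 and M4. Genes of mast cells and basophils, of T and NK cells and of dendritic cells and macrophages had 0 calls by edgeR among 10, 14 and 15 tested. In the same order, 3, 0 and 5 were at an unadjusted p under 0.05, DESeq2 called 1, 0 and 0, and limma-voom called 0, 0 and 1. Their summed levels overlapped between genotypes, at 6.82 to 11.5 against 6.90 to 10.6 CPM, 31.0 to 50.4 against 23.6 to 41.4 CPM and 32.3 to 42.7 against 31.3 to 38.9 CPM. Among B cell genes, Pax5 was at 0 in both groups, and the summed level was 72.5 to 95.6 CPM in controls and 53.8 to 71.3 CPM in mutants. Cd79b, a chain of the B cell receptor, made up nearly all of it (78.4 ± 10.6 and 58.6 ± 5.86 CPM) and was the 1 of 10 that was called lower (edgeR adjusted p = 0.0414), a call lost without any HSC library other than M3 (highest adjusted p = 0.137). The stromal and endothelial list summed to 74.97 to 94.6 CPM in controls and 39.96 to 55.8 CPM in mutants. Emcn, endomucin, which HSC also express, was its 1 called member (30.3 ± 7.56 to 12.2 ± 4.62 CPM, -1.31 ± 0.28, edgeR adjusted p = 0.00956). The part that other cells have in the falls was not tested.

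Among the receptors and feedback genes around the mutant kinase, the calls were falls. Of 33 cytokine receptors, 4 fell and 0 rose (median -0.31), among them Il4ra, Il6st and Csf2ra. The 4 became 1 without M2, 2 without any of C1 to C3 or M1 and M4, and 2 without M1 and M4 together. Il4ra, a chain of the interleukin-4 receptor (0.57 lower, SE 0.13), lost its call without M2 and kept it without M1 and M4. Il6st and Csf2ra each lost their calls without any of C1 to C3 or M1, M2 and M4 (edgeR adjusted p 0.0536 to 0.116). Epor, the erythropoietin receptor, was at 25.5, 13.8, 27.7 and 32.7 CPM against 34.8, 39.7, 33.7 and 40.9 CPM. It was higher in the mutants without overlap but not called (0.58 ± 0.68, edgeR adjusted p = 0.708). Csf3r, the G-CSF receptor, overlapped between groups (63.8, 73.4, 73.5 and 50.6 against 49.4, 25.4, 63.8 and 50.5 CPM, edgeR adjusted p = 0.375).

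Of 32 JAK and STAT genes and their inhibitors, 5 fell (Cish, Ptpn1, Jak1, Jak3 and Stat6) and 0 rose (median -0.19; 2 without M1, 3 without any of C1 to C4 or M2 and M4, 0 without M1 and M4). Cish, the feedback inhibitor that STAT5 induces, was at 164, 186, 149 and 70.1 CPM in controls and at 42.0, 48.0, 78.9 and 34.5 CPM in mutants. C4 lay below M3, so the groups overlapped, and the fall of 1.48 (SE 0.29, edgeR adjusted p = 0.00481) was not called without M1 and M4 (adjusted p = 0.115). Stat5a (245 ± 21.0 against 195 ± 67.7 CPM) and Stat5b (119 ± 12.5 against 100.5 ± 41.7 CPM) were not called (edgeR adjusted p = 0.452 and 0.641), and M4 was the lowest library for both, at 110.1 and 51.4 CPM. Ptpn1, a phosphatase of activated JAK2, fell by 0.53 (SE 0.12), from 146 ± 17.1 to 101 ± 17.2 CPM without overlap (edgeR adjusted p = 0.0125; 0.185 without M1 and M4). Stat3 was 384, 382, 382 and 412 CPM against 262, 328, 349.7 and 293 CPM, lower without overlap (-0.34 ± 0.10, edgeR adjusted p = 0.0547, and 0.0419 with the block).

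Of 26 target genes of STAT5 and STAT3, 4 fell and 0 rose (median -0.50; 3 to 5 with 1 library left out; 4 without M1 and M4; 9 with the batch as a block). Pim1, a serine kinase induced by STAT5, was at 549, 309, 353 and 421 CPM in controls and at 300.5, 174, 177 and 235 CPM in mutants. The highest mutant, M1, lay just under the lowest control, C2 (-0.88 ± 0.24, edgeR adjusted p = 0.0341). The call was lost without C1 or C4 or M2, M3 or M4 (adjusted p 0.0734 to 0.118). Id2, an inhibitor of E proteins, fell by 1.29 (SE 0.24) from 16.7 ± 4.72 to 6.85 ± 1.09 CPM (edgeR adjusted p = 0.00406). Bcl2l1, the survival gene of the BCL2 family that STAT5 induces, was 200.5 ± 18.9 against 257 ± 22.3 CPM, higher in each mutant library but not called (0.36 ± 0.14, edgeR adjusted p = 0.126). Socs2 overlapped fully (33.1 ± 6.13 and 40.6 ± 11.7 CPM, edgeR adjusted p = 0.763).

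Immediate early genes, which sorting and handling are known to induce within minutes, varied widely between batches. Their summed level was 11710, 2418, 1897 and 1765 CPM in the controls and 2347, 945, 673 and 619.7 CPM in the mutants, so both genotypes were highest in batch 1. Fos, chosen after its values were seen, was at 3266, 473, 278 and 305 CPM against 816, 132, 24.8 and 76.2 CPM, lower in the mutant of each batch. All 23 members had a negative change (median -1.73), yet 2 were called without the block (1 without C1 or M1 or M3, 0 without M4, 0 without M1 and M4, and 8 at an unadjusted p under 0.05 with all libraries) and 14 with it. For Fos the adjusted p was 0.454 in edgeR and 0.000293 with the block, and for Socs3, at 143, 25.1, 14.5 and 20.2 CPM against 22.1, 8.08, 10.6 and 7.52 CPM, it was 0.211 and 0.014. The part of handling in this difference was not tested, and the median without C1 was -0.69.

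Other signalling lists held few calls. Among 37 interferon-induced genes 1 fell and 0 rose (median -0.02), and this was Ifitm1, a membrane protein that blocks virus entry (chr7:140967221-140969825). It was at 592, 794, 728 and 629.6 CPM in controls and at 296, 287, 389 and 261 CPM in mutants, without overlap (-1.15 ± 0.15, edgeR adjusted p = 0.000405), and the block called 2 risers and 2 fallers in this list. Of 22 NF-kB factors and targets 4 fell (median -0.37), and 1 or 2 did without C1, C3 or C4 or M1, M2 or M4, and 0 without M1 and M4. Of 25 genes of TGF-beta and BMP signalling 3 fell (median -0.35), Id2, Eng and Smad3. Without C2 or C4 or M1, M2 or M4, and without M1 and M4 together, only Id2 did. Of 16 genes of RAS-ERK feedback 2 fell (median -0.23), and 0 did without C1, M2 or M3. In the leukotriene and prostaglandin list 3 of 21 rose and 2 fell (median -0.37), namely Alox5, Lta4h and Ptges3 up and Ptger4 and Ltb4r1 down, with 1 rise without M1 and 1 rise and 1 fall without M1 and M4. Lta4h, leukotriene A4 hydrolase, rose by 0.78 ± 0.18 (112 ± 24.4 to 192 ± 50.6 CPM, overlapping at M3), a call lost without M1 (edgeR adjusted p = 0.0581). The leukotriene B4 receptor gene Ltb4r1 fell to 0.335 ± 0.225 from 1.38 ± 0.411 CPM (-2.03 ± 0.40, edgeR adjusted p = 0.00587), without overlap.

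The unfolded protein response reports stress in the endoplasmic reticulum through 3 sensors, IRE1, PERK and ATF6, of which IRE1 splices the Xbp1 transcript and PERK raises ATF4. Gene counts do not separate spliced from unspliced Xbp1. Xbp1 (chr11:5520659-5525893) was at 48.4, 43.8, 39.9 and 33.4 CPM in controls and at 18.4, 18.8, 24.5 and 14.9 CPM in mutants. All mutant libraries lay below all controls (-1.11 ± 0.21, edgeR adjusted p = 0.00461), but the call was lost without M1 and M4 (adjusted p = 0.102). Ern1, the gene of IRE1, was at 69.9, 34.1, 16.03 and 33.9 CPM against 10.7, 19.4, 18.5 and 17.4 CPM. C3 overlapped with the mutants. The fall of 1.22 (SE 0.33, edgeR adjusted p = 0.0343) was lost without C1, C2 or C4 or M1, M2 or M4 (adjusted p 0.0548 to 0.138). Of 21 sensors and regulators 3 fell and 0 rose (median -0.08; 1 fell without C1 or C2 or M1, M2 or M4; 0 without M1 and M4 together; 5 fell and 1 rose with the block). The chaperone gene Hspa5 (648 ± 218 against 681 ± 213 CPM, edgeR adjusted p = 0.922), Atf4 (107 ± 35.5 against 102 ± 13.1 CPM, 0.894) and Ddit3 (21.6 ± 5.82 against 15.8 ± 4.14 CPM, 0.361) were not called.

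Targets of PERK and ATF4 divided: 4 of 28 rose and 2 fell (median -0.06), with 1 fall without C1, C3 or C4 or M1 or M4, and with 1 rise and 0 falls without M1 and M4. Mthfd2, a mitochondrial folate enzyme, rose from 32.0, 27.2, 35.9 and 29.5 CPM to 79.8, 78.3, 61.6 and 76.0 CPM (1.25 ± 0.16, edgeR adjusted p = 0.000304). Trib3, a pseudokinase that curbs ATF4, fell from 51.2, 81.9, 59.9 and 57.6 CPM to 18.6, 23.3, 24.7 and 16.6 CPM (-1.59 ± 0.29, edgeR adjusted p = 0.00362). Neither gene overlapped between groups, and the call of Trib3 was lost without M1 and M4 (adjusted p = 0.0952). Of 35 targets of IRE1 and XBP1s 3 rose and 1 fell (median 0.15; 9 rose without M3 and 6 without C1; 1 rose and 0 fell without M1 and M4). Of 23 ER chaperones and ATF6 targets 2 rose (median 0.07; 0 without C2, 1 without C3 or M1, M2 or M4, 4 without M3, 0 without M1 and M4). Of 29 genes of ER-associated degradation 1 fell (median -0.10; 0 without any HSC library other than C1, and without M1 and M4). For the translocon and oligosaccharyltransferase 2 of 33 rose (median 0.15; 4 without C1, 6 without M3, 0 without M1 and M4). Rpn1, a subunit of the transferase, rose from 379 ± 18.1 to 515 ± 17.1 CPM (0.45 ± 0.09, edgeR adjusted p = 0.00496; 0.0527 without M1 and M4).

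Outside the endoplasmic reticulum, proteasome and chaperonin subunits held many risers and cytosolic heat shock genes few. Of 38 proteasome subunits 19 rose and 0 fell, and 37 had a positive change (median 0.35; 13 to 21 with 1 library left out; 2 without M1 and M4). Psma7, a subunit of the core ring, was at 344, 337, 367 and 367 CPM in controls and at 511, 485, 461 and 521 CPM in mutants, well apart (0.48 ± 0.08, edgeR adjusted p = 0.0027; 0.0507 without M1 and M4). Psmc3, an ATPase of the cap, rose from 246 ± 10.8 to 332 ± 13.04 CPM (0.43 ± 0.08) and was called in that fit too (edgeR adjusted p = 0.0389). All 8 subunits of the CCT chaperonin, which folds tubulin and actin, had a positive change and 6 rose (median 0.41). This count was 1 without C2, 2 without M1, 3 without C3 or C4 or M4, and 0 without M1 and M4. Of 24 cytosolic heat shock genes 1 rose (Hspa14) and 1 fell (Dnajb4), with a median of 0.16 (4 rose without M3, 3 with the block; 0 rose and 0 fell without M1 and M4). Autophagy genes had 24 of 31 negative changes and 1 call, a fall (median -0.28; 3 with the block; 4 without M3, 0 without C3 or C4 or M1, M2 or M4, and without M1 and M4). Lysosome genes had 1 of 33 rise and 3 fall (median -0.11; 0 without M1 and M4). Ctsf, cathepsin F, fell from 57.4, 64.0, 66.6 and 87.3 CPM to 18.1, 19.2, 39.3 and 26.8 CPM (-1.41 ± 0.26, edgeR adjusted p = 0.00345; 0.0751 without M1 and M4).

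In the mitochondria, the called nuclear genes of respiration rose and the called mitochondrial ones fell. All 23 genes of the tricarboxylic acid cycle had a positive change and 9 rose (median 0.32; 6 to 15 with 1 library left out, the highest without M3; 2 without M1 and M4). Fh1, fumarate hydratase, was at 116, 111, 118 and 115 CPM in controls and at 174, 165, 171 and 168 CPM in mutants and was far apart between the genotypes (0.56 ± 0.10, edgeR adjusted p = 0.00246). Of the nuclear genes of complex I 10 of 36 rose and 0 fell (median 0.29; 5 without C2, 6 without C4 or M1, 2 without M1 and M4). Of those of complexes III to V 10 of 42 rose and 0 fell (median 0.33; 18 with the block; 5 without C2 or M4, 6 without C4 or M1, 2 without M1 and M4). Atp5b, the catalytic subunit of ATP synthase, rose from 956, 863, 928 and 846 CPM to 1285, 1188, 1249.7 and 1257 CPM (0.47 ± 0.08, edgeR adjusted p = 0.00258), with no overlap. Etfb, the electron transfer flavoprotein subunit, rose from 359.8, 350.1, 373 and 358 CPM to 496, 526, 567 and 577 CPM (0.59 ± 0.08, edgeR adjusted p = 0.000438).

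All 13 genes encoded in the mitochondrial genome had a negative change, and 6 fell (median -0.55; 10 with the block; 2 without M4, 3 without C1 or C2, 0 without M1 and M4). mt-Co1, a subunit of complex IV, was at 3564, 3333, 2883 and 2404 CPM in controls and at 1769, 2075, 2218 and 1409.9 CPM in mutants, with no overlap (-0.71 ± 0.16, edgeR adjusted p = 0.0118; 0.178 without M1 and M4 and not called without M4 alone). Mitochondrial transcripts took 1.45% to 2.03% of counts in controls and 0.924% to 1.37% in mutants. These ranges did not overlap.

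Other metabolic lists held mixed members. Of 27 glycolysis and lactate genes 5 rose and 2 fell (median -0.04; 2 or 3 rose without C2, C3 or C4 or M1 or M4; 0 and 1 without M1 and M4; 5 and 5 with the block). Ldhb, the lactate dehydrogenase subunit of oxidative tissues, was at 239, 234, 239 and 239.5 CPM in controls and at 159, 107, 161 and 149.7 CPM in mutants. Its controls were almost identical and its mutants were all lower (-0.72 ± 0.15, edgeR adjusted p = 0.00755). Ldha, the other subunit, rose by 0.41 ± 0.11 and lost its call without C2, C3 or C4 or M2 or M4. Enzymes of serine and folate metabolism had 6 of 19 rise and 1 fall (median 0.29; 4 to 8 rose with 1 library left out; 3 without M1 and M4). Beside Mthfd2, Ahcy, which clears the product of methylation reactions, rose (202 ± 15.2 to 311 ± 17.2 CPM, 0.62 ± 0.11). Cytosolic aminoacyl-tRNA synthetases had 5 of 20 rise (median 0.29; 3 without C2 or C4 or M1, 8 without M3, 1 without M1 and M4). Antioxidant and pentose phosphate genes had 4 of 26 rise (median 0.01; 2 without any of C2 to C4 or M1, and without M1 and M4). Sod1, superoxide dismutase, was at 1276, 1269, 1283 and 1244 CPM against 1457, 1532, 1646 and 1653 CPM (0.31 ± 0.07, edgeR adjusted p = 0.00943, no overlap). For haem synthesis and iron 2 of 20 rose and 2 fell (median 0; 1 fell without any HSC library other than M2; 1 rose and 1 fell without M1 and M4). Ftl1, the ferritin light chain, fell from 2836, 2787, 2758 and 2547 CPM to 1663, 1680.0, 2157 and 1836 CPM (-0.57 ± 0.09, edgeR adjusted p = 0.00161). Alad, an enzyme of haem synthesis, rose by 0.40 ± 0.09 (123.2 ± 4.61 to 162 ± 16.7 CPM). Fatty acid oxidation had 2 of 26 rise and 1 fall (median 0.07; 4 rose with the block and 4 without M3; 1 rose and 0 fell without M1 and M4).

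Some genes of nuclear transport, RNA processing and translation rose. Among all tested genes, 15.3% rose at 100 CPM or more and 5.25% from 20 to 100 CPM. The lists in this paragraph were not matched for level, so shares near these are not a result about the lists. Of 47 nuclear pore and transport genes 15 rose and 0 fell (median 0.39; 13 to 23 with 1 library left out, the highest without M3; 3 without M1 and M4). Kpna2, importin alpha 1, was at 187, 175, 224 and 186 CPM in controls and at 524, 394, 358 and 513 CPM in mutants. Each mutant was clearly above the control range (1.21 ± 0.15, edgeR adjusted p = 0.000191). Among 67 splicing factors 11 rose and 0 fell (median 0.26; 4 to 7 without any of C2 to C4 or M1, M2 and M4, 21 without M3, 1 without M1 and M4). Of 50 nucleolar genes of ribosome biogenesis 7 rose (median 0.27; 13 with the block; 3 or 4 without any of C2 to C4 or M1 and M4, 21 without M3, 0 without M1 and M4). Of 78 mitochondrial ribosomal proteins 11 rose (median 0.24; 5 to 7 without any of C2 to C4 or M1 and M4, 19 without M3, 1 without M1 and M4). Translation factors had 7 of 66 rise and 1 fall (median 0.11; 3 rose without C2, 4 without C4, 15 without M3; 1 rose and 0 fell without M1 and M4).

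Of the 81 tested cytosolic ribosomal protein genes, 0 were called by edgeR or limma-voom (median -0.11). At an unadjusted p under 0.05, 3 of these genes were higher and 5 lower, and DESeq2 called 1 higher. Their medians within batches 1 to 4 were -0.47, -0.22, 0.29 and -0.13, and without M3 edgeR called 9 lower. RNA polymerase I and III subunits had 0 of 15 called (median 0.16; 4 higher at an unadjusted p under 0.05; 2 by DESeq2, 0 by limma-voom). Myc, a factor that drives growth genes, chosen after its values were seen, was at 402, 255, 382 and 238 CPM against 194, 236, 228 and 227 CPM (-0.53 ± 0.20, edgeR adjusted p = 0.117). Its relative Mycn was called lower at 337 ± 87.5 against 165 ± 39.9 CPM (edgeR adjusted p = 0.0206; 0.269 without M1 and M4), a call also lost without C2 or C3 or M1 or M4 alone (0.0519 to 0.0761). BCL2 family genes had 0 of 20 called by edgeR or limma-voom (median 0.22; 4 higher at an unadjusted p under 0.05; 1 by DESeq2). Of the p53 targets 0 of 22 were called by edgeR (median -0.35; 1 higher and 3 lower unadjusted; 1 higher and 1 lower by DESeq2; 1 lower by limma-voom).

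Of 15 genes of DNA methylation 3 rose and 1 fell (median 0.07; 3 and 0 without any HSC library other than C4 and M3; 1 and 0 without M1 and M4). Dnmt1, the maintenance DNA methyltransferase, rose from 331, 295, 417 and 424 CPM to 618, 704, 433 and 746 CPM, with M3 just above the highest control (0.77 ± 0.15, edgeR adjusted p = 0.00514; 0.0936 without M1 and M4). Its partner Uhrf1, which reads half-methylated DNA, rose by 0.81 ± 0.12 (241 ± 32.6 to 424 ± 60.4 CPM, edgeR adjusted p = 0.000624) and was called in every fit that left out HSC libraries. The methyltransferases of Polycomb complex 2 went opposite ways: Ezh2, that of dividing cells, was at 36.2, 34.7, 39.0 and 31.8 CPM against 76.0, 48.0, 60.6 and 58.0 CPM, and Ezh1, that of resting cells, at 102, 121, 86.4 and 104 CPM against 49.9, 57.3, 72.7 and 63.8 CPM. Neither overlapped between groups (0.77 ± 0.16 and -0.76 ± 0.15, edgeR adjusted p = 0.00613 and 0.00591), and both calls were lost without M1 and M4 (adjusted p = 0.102 and 0.0982). Of all 31 Polycomb genes 1 rose and 3 fell (median -0.07; 2 rose without C3 or M3; 0 rose and 0 fell without M1 and M4). Of 19 genes of the KMT2 and SETD1 methyltransferases and their partners 2 rose and 2 fell (median -0.02; 0 rose without C3 or C4; 1 fell without C2 or C4 or M1 or M4; 0 and 0 without M1 and M4).

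Of 19 clock genes, 18 had a negative change and 6 fell, Hlf among them (median -0.96; 2 without C2 or M4, 3 without C3, 1 without M1 and M4). Cry2, a repressor of the clock, fell from 32.0, 36.2, 43.2 and 45.6 CPM to 18.1, 22.4, 18.3 and 17.0 CPM. No mutant library reached a control (-1.05 ± 0.24, edgeR adjusted p = 0.0132), though without M4 it was not called (adjusted p = 0.0532). Nr1d1, the repressor REV-ERB alpha, was 26.0 ± 4.27 against 16.3 ± 0.927 CPM without overlap and was not called (edgeR adjusted p = 0.208), and Arntl, the activator BMAL1, overlapped (26.5 ± 17.7 and 14.5 ± 3.81 CPM). Both were chosen after their values were seen.

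**Figure D4:**
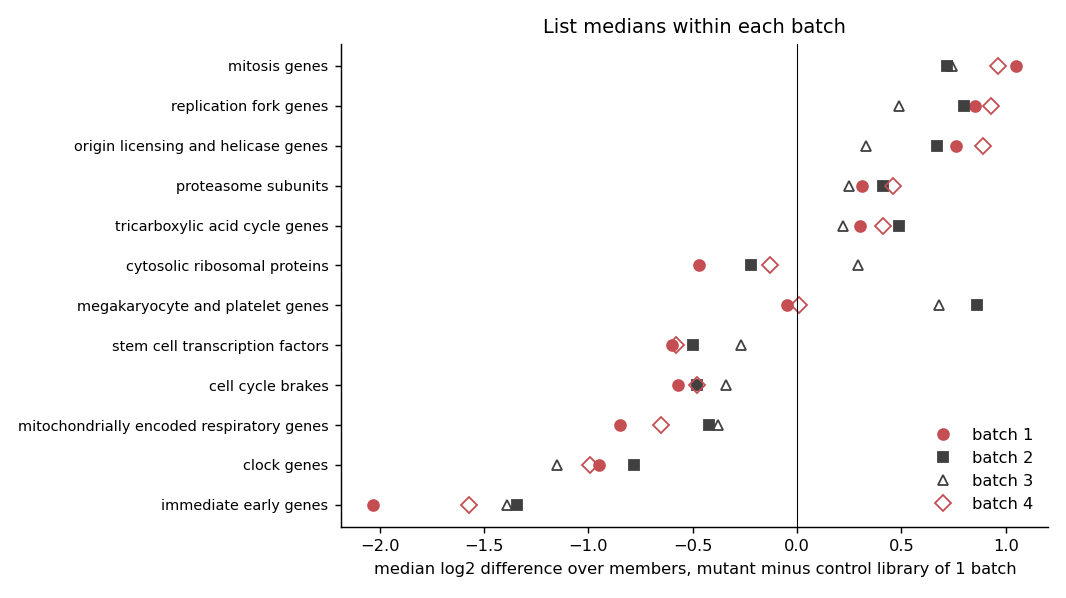
Median log2 change (horizontal axis, mutant minus control) of each gene list within each of the 4 batches, with 1 point per batch and batches 1 and 4, whose libraries hold almost no Y-linked transcripts, in red. Replication and mitosis lists lie right of 0 and stem cell factors, brakes and clock genes left of 0 in every batch, while the megakaryocyte and cytosolic ribosomal protein lists differ in sign between batches.

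The split of the batches by Y-linked transcripts allowed the comparison to be repeated within each kind of batch, with 2 libraries a group. Within batches 1 and 4, 367 genes were called (2.59%), and within batches 2 and 3, 105 were (0.741%). A single gene, Ptgir, the prostacyclin receptor, passed the test of a difference between the batch pairs. The medians of the mitosis list in batches 1 to 4 were 1.05, 0.72, 0.74 and 0.96, those of the fork list 0.85, 0.80, 0.49 and 0.93, and those of the stem cell factors -0.60, -0.50, -0.27 and -0.58, so the directions held in each batch.

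In MPP3 the same contrast called 9 of 14179 genes (0.0635%), with 2 higher (0.0141%) and 7 lower (0.0494%). At an unadjusted p under 0.05 (edgeR) there were 1960 genes (13.8%) in MPP3, against 3080 (21.7%) in HSC. The difference between the effects (MPP3 minus HSC) was called for 6 (0.0423%), and 982 (6.93%) had an unadjusted p under 0.05. The 6 were Plac8, Alox5, Tyms, Ifitm1, Gbp4 and Spats2. The change of Plac8 was 2.07 in HSC and 0.29 in MPP3 (edgeR adjusted p of the difference = 0.0441), that of Alox5 3.09 and -0.27 (0.0327), and that of Tyms 1.06 and 0.15 (0.0327). For Ifitm1 the change was -1.15 in HSC and 0.32 in MPP3 (edgeR adjusted p of the difference = 0.0189). Gbp4 and Spats2 each had an MPP3 group with no counts, so that their fitted changes depend on the prior count. Without M1 and M4, 0 differences were called by edgeR (891 at an unadjusted p under 0.05), and with the block 1 was. For the mitosis list the median was 0.86 in HSC and 0.31 in MPP3, for the fork list 0.76 and 0.26, and for the stem cell factors -0.45 and -0.15, and none of their members passed the test of the difference.

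**Figure D5:**
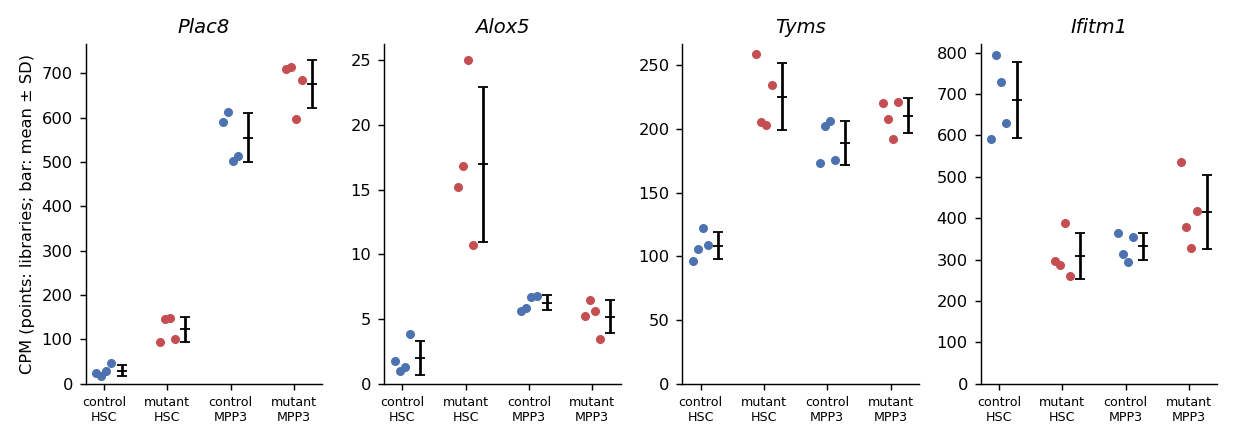
Level (vertical axis, CPM) of Plac8, Alox5, Tyms and Ifitm1 in control and Jak2V617F HSC and MPP3, with 1 point per library and the mean ± SD of 4 libraries. In HSC the genotypes are apart for all 4 genes, and in MPP3 they overlap.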

How the data were processed

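Estimated counts per gene and library, deposited by the authors with TPM values and effective lengths in bases (per the file headers, as Salmon writes them), were rounded to whole counts. TPM and effective length were used only for levels per length and in 1 alternative. The submitters' processing notes name cutadapt 4.0, FastQC, HISAT2, Salmon and GRCm38 (mm10), with no role or order. The strand protocol and the transcript set were not given. Per the labels, libraries were made from 10 ng of RNA with RIN above 8.0 and 12 to 15 PCR cycles and read as 150-base pairs. Of 31716 rows, 29806 name genes, the other 1910 name single transcripts and were left out, and 14179 genes passed filterByExpr.

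All 16 libraries were fitted in 1 model with 4 group terms (R 4.3.3, edgeR 4.0.16, TMM, glmQLFit robust, glmQLFTest). DESeq2 1.42.0 and limma 3.58.1 (voom) were alternatives, beside the batch as a block, another scaling, no filter, an effective-length offset, no mitochondrial genes, HSC libraries alone and single libraries left out. Mutant replicates 1 and 4 were also left out together or summed. Fits by batch pair and a term for Y-linked counts were added after seeing the data. The scripts were tested on simulated data. Because the labels give the replicate number as the batch, the numbers pair the samples. The deviations of same-numbered mutant and control HSC libraries from their group means correlated at 0.08, -0.0013, 0.025 and 0.062 across genes, against -0.057 to 0.056 for other pairs.

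The comparison and the 73 gene lists (1913 genes, 1836 tested) were chosen with earlier results of these data known. Named genes are the 15 largest rises and 15 largest falls with at least 5 CPM and no overlap, the 10 smallest p-values, the 10 largest differences in CPM, up to 4 called genes per list, 24 fixed genes and genes whose effect differed between HSC and MPP3. Some of these genes are not reported here, though list counts include them. Counting precision follows from 35.08 to 40.87 (1e6) counts per HSC library, and replicate spread limits the tests.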

Additional observations from a re-analysis of the deposited data

Results flagged for a closer look

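Among the 4 mutant HSC libraries, Procr in replicate 3 stood apart from the others: its gap to the nearest library was 0.879 of the group's range, above Dixon's critical value for 4 samples. The summed level of immediate early genes in control HSC replicate 1 stood apart in the same way (0.934 of the range). Chance gives such a gap in about 1 in 20 groups.

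For 6 genes the effect differed between MPP3 and HSC by the interaction test in edgeR (MPP3 minus HSC, log2). The difference was -3.36 for Alox5, -1.78 for Plac8 and -0.90 for Tyms, whose rise was found in HSC, and 1.48 for Ifitm1, whose fall was. For Gbp4 it was -7.84 (15.4 to 6.15 CPM in HSC, 1.89 to 0 CPM in MPP3) and for Spats2 9.54 (2.20 to 0.724 CPM in HSC, 0 to 0.811 CPM in MPP3). The sizes for Gbp4 and Spats2 rest on groups with no counts and so on the prior count.

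The effect on Ptgir, chosen after its values were seen, differed between batches 1 and 4 and batches 2 and 3 by -7.87. Its controls were at 3.00, 0.0269, 0 and 2.32 CPM and its mutants at 1.66, 1.49, 3.92 and 2.04 CPM, so this size rests on near-zero controls in batches 2 and 3.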

How the results depend on the processing

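The count of genes called in HSC (1035) ran from 605 to 1412 with 1 library left out, the extremes being without mutant HSC replicate 1 and without mutant HSC replicate 3, and was 266 without mutant replicates 1 and 4, 661 with these 2 summed as 1 library, 1674 by DESeq2, 367 within batches 1 and 4 and 105 within batches 2 and 3. The cause of these changes was not tested. The count of differences between MPP3 and HSC (6) was 1 with the replicate block, 77 by DESeq2, 0 without mutant replicates 1 and 4, and 1 to 5 with 1 library left out.

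With the batch as a block, 1394 genes were called in HSC (818 higher, 576 lower), of which 1006 were among the 1035. Among the named genes the block ended 3 calls, that of Smad3 among them, added 7, those of Fos, Kit, Stat3, Socs3 and Gbp4 among them, and changed no other call. Over all alternatives and named genes, 6687 comparisons kept their side of the threshold, 974 lost a call and 41 gained one. Among the called named genes, 0 changed direction in any alternative. Of 225 called named genes, 147 kept their call with any 1 HSC library left out and 91 without mutant replicates 1 and 4. Of the 2017 genes at 1 to 5 CPM, 0.397% rose and 0.397% fell, against 15.3% and 4.6% at 100 CPM or more.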
